A study of Mus musculus with 4 samples.

Results

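The gene set described here holds 10 genes of dietary fat absorption and lipoprotein assembly: Apoa1, Apoa4, Apoc3, Apob, Mttp, Fabp1, Fabp2, Cd36, Dgat1 and Dgat2. They were chosen by name from the gene tables, which share 27514 genes among the 4 libraries, and all 10 were present in each table. The libraries are single-cell RNA libraries from dissociated small intestinal adenomas of C57BL/6 mice labelled male, aged 11 weeks. Of these, 2 came from ApcMin mice (genotype ApcMin/+ with Lef1 +/+) and 2 from VApcMinL mice (ApcMin/+ with Lef1 fl/fl and Villin-Cre), so all of the mice carry the Apc Min allele, and Villin-Cre acts on the floxed Lef1 gene in the intestinal epithelium. Each library pooled several tumors without a sort, so cells of crypt and villus type were sequenced with the adenoma cells. Whether these came from normal tissue beside the tumors or from the tumors themselves was not tested. Replicate 1 of each genotype was made with version 2 of the droplet kit and replicate 2 with version 3. Nothing in the labels says whether the tumors of 2 libraries came from different litters, and a p-value given below measures the spread between these libraries.

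After a meal, triglycerides are split in the gut lumen and the fatty acids enter the absorptive cell, the enterocyte. There they are carried by fatty acid binding proteins and rebuilt into triglyceride at the endoplasmic reticulum. Microsomal triglyceride transfer protein loads this fat onto apolipoprotein B, other apolipoproteins join the surface, and the particle leaves the cell as a chylomicron. In the normal gut, enterocytes are born in crypts and move along the villus to its tip, where they are shed. A series from crypt to tip is there a series of ages of 1 cell lineage.

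Apoa1, Apoc3 and Apoa4 form a known cluster on chromosome 9. In the RefSeq annotation of GRCm38.p6, Apoa1 lies at chr9:46228630-46230469, Apoc3 at chr9:46233050-46235636 and Apoa4 at chr9:46240844-46243458. Apob is at chr12:7977629-8016839, Mttp at chr3:138089855-138143418, Fabp1 at chr6:71199879-71205034, Fabp2 at chr3:122895072-122899506, Cd36 at chr5:17781690-17888959, Dgat1 at chr15:76502012-76512021 and Dgat2 at chr7:99153663-99182713, all of them protein-coding. RefSeq promoter windows matched 7 of the 10 genes, namely Apoa1, Apoa4, Apob, Fabp1, Fabp2, Mttp and Cd36. The 250 bases before the start site are printed for the 5 genes with the highest levels in enterocytes or at the villus tip, because these 5 moved in different ways between the 2 stages. Capitals mark matches to CAAAGNNCA, the core of a site for HNF4, a transcription factor of enterocytes, on either strand; the windows lie at chr9:46228380-46228629, chr9:46240594-46240843, chr12:7977427-7977676, chr6:71199629-71199878 and chr3:122894822-122895071 in the order printed, all on the plus strand of GRCm38.p6.
Apoa1: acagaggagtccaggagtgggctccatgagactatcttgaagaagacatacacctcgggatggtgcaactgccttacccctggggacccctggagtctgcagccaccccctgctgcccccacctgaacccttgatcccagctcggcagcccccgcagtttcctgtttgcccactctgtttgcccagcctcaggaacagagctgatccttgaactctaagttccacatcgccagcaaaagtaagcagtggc
Apoa4: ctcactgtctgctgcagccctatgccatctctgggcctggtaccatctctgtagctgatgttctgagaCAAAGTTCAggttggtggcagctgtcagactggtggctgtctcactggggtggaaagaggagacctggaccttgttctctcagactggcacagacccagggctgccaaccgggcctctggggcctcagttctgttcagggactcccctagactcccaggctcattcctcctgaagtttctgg
Apob: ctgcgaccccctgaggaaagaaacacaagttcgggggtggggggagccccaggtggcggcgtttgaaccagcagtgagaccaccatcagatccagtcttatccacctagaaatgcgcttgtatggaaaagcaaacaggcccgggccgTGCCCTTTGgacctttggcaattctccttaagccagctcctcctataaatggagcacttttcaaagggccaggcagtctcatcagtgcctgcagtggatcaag
Fabp1: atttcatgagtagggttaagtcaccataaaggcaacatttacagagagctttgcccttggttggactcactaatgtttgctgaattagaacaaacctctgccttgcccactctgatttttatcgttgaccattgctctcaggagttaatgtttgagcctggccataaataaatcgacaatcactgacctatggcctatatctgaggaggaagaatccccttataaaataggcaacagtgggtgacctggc
Fabp2: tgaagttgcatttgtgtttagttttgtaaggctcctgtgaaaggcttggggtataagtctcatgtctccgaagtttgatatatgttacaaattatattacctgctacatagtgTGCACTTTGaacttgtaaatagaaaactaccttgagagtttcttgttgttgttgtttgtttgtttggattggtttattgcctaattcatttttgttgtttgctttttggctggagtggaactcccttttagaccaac
The letters CAAAGNNCA were found in 3 of the 7 windows, those of Apoa4 (bases 182 to 174 before the start site, plus strand), Fabp2 (137 to 129, minus strand) and Apob (103 to 95, minus strand). They were found in 5.49% of all 32851 promoter windows of the same length. TATAAA, a core promoter element, was found in 2 of the 7, at bases 30 to 25 before the start of Fabp1 and 60 to 55 before that of Apob, against 12.4% of all windows. AGATAA, the letters read by a family of zinc-finger factors active in gut epithelium, was found in none of the 7 and in 9.99% of all windows. The window of Apob, chr12:7977427-7977676, ends inside the gene span given above. Both Apob positions therefore count from the start site of the window and not from the start of that span. A match of letters describes the sequence and is not a measured binding site.

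The 4 tables held 44660305, 49009488, 98714025 and 128247396 unique molecular identifiers (UMIs, each standing for 1 captured RNA molecule), ApcMin before VApcMinL and replicate 1 of both before replicate 2, and all values per library below follow this order. Barcodes with at least 2000 UMIs and at most 20% mitochondrial UMIs were kept, which left 2472, 2534, 2070 and 4216 cells. The mitochondrial limit removed 61.6% of barcodes above the UMI minimum in ApcMin replicate 2 and 20.4% to 26.6% in the other 3 libraries. Levels are given in UPM, the UMIs of a gene per 1000000 UMIs summed over the cells of a gate, so a value is a share of the RNA of those cells and not an amount per cell. A UMI stands for a molecule whatever its length, so genes are compared on this scale without a length term. Lef1, the targeted gene, was at 10.3, 31.2, 39.7 and 23.7 UPM in adenoma cells, so with kit version 2 it was higher in the library labelled VApcMinL than in the library labelled ApcMin. Xist, an RNA of female cells, was at 1207 and 329 in the adenoma cells of the libraries labelled VApcMinL and at 0 and 0.0853 in those labelled ApcMin, so the genotypes also differ in the sex of the cells, and the part of these differences in any comparison of the genotypes was not tested. Within a kit version, 9 kept barcodes were shared by both libraries with version 2, where 8.50 would be shared by random drawing, and 0 with version 3.

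Epithelial cells were gated by marker lists that hold none of the 10 genes. The crypt gate held 53, 40, 27 and 94 cells, the immature absorptive gate 161, 272, 124 and 244, the enterocyte gate 265, 529, 845 and 590, the villus-tip gate 21, 110, 158 and 87, and the adenoma gate 493, 523, 305 and 1905. The marker levels followed the names for most gates. Alpi, the brush border alkaline phosphatase, was at 581 to 1233 UPM in enterocytes and 6.98 to 20.7 in adenoma cells. Ada, an enzyme of the villus tip, was at 3139 to 5260 in tip cells and 36.1 to 119 in enterocytes. Notum, a Wnt antagonist of adenoma cells, was at 101 to 456 in the adenoma gate and at most 10.1 in the crypt gate. The crypt gate was less certain, since Olfm4, a marker of crypt stem cells, was at 1263 and 942 in the version 3 libraries but at 16.9 and 9.49 in the version 2 libraries, where the gate rested largely on Gkn3 (894 and 1050), a gene also read in adenoma cells (550 to 2439). The Olfm4 level goes against the name crypt for the version 2 cells, so crypt cells below means cells of this gate, and results that use the gate are given below with and without Gkn3.

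The 10 genes together made up 4.65%, 5.30%, 6.00% and 4.89% of all UMIs of enterocytes and 6.32%, 7.65%, 7.70% and 8.63% of those of villus-tip cells. In immature absorptive cells the share was 0.458%, 0.405%, 0.408% and 0.262%, and in adenoma cells 0.0646%, 0.110%, 0.0871% and 0.0498%. The fatty acid binding proteins gave 58.0%, 52.6%, 61.6% and 55.5% of these UMIs in enterocytes but 15.2%, 13.8%, 19.3% and 17.8% at the villus tip, where apolipoprotein UMIs took their place. The ranges of enterocyte and tip cells did not overlap for either share.

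**Figure D1:**
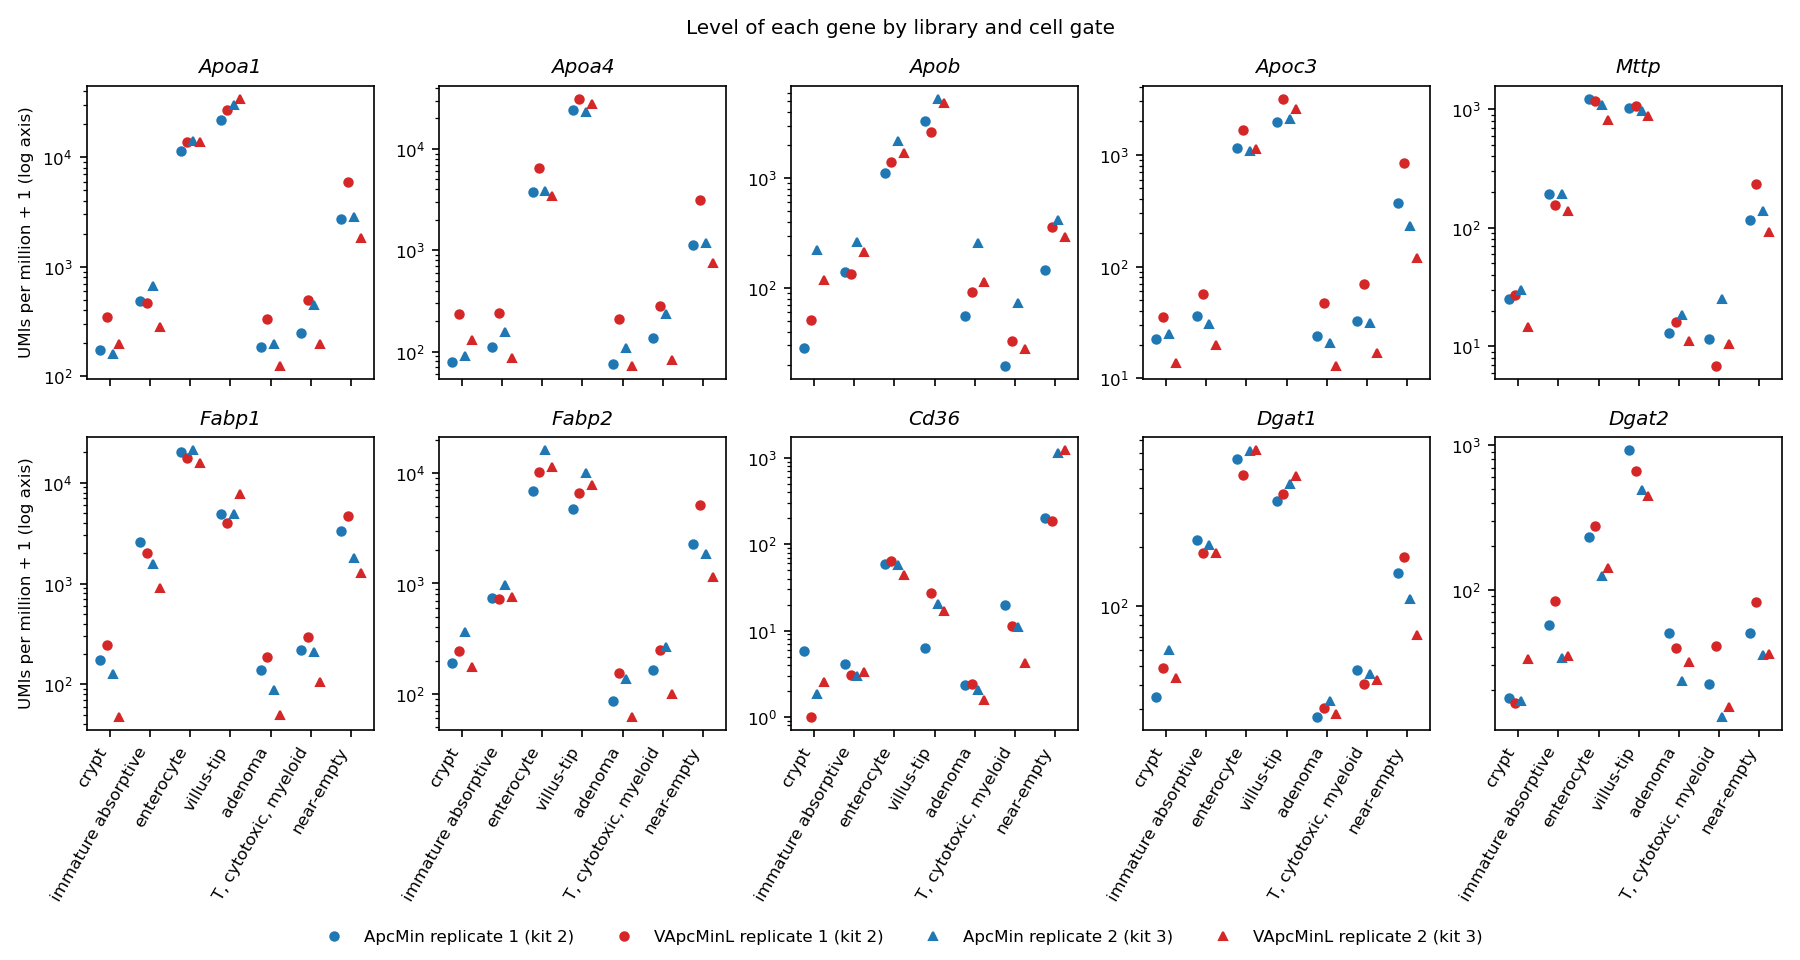
UPM (log axis) of each of the 10 genes in crypt, immature absorptive, enterocyte, villus-tip and adenoma cells, with pooled T, cytotoxic and myeloid cells and near-empty barcodes beside them; each point is 1 of the 4 libraries. Apoa1 lies at 11485 to 14018 in enterocytes and 21784 to 33890 at the villus tip, whereas Fabp1 lies at 15696 to 21000 and then 3986 to 7656.

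Low levels were read beside those of near-empty barcodes, taken as a guide to free RNA, and of other cell types. Barcodes with 10 to 100 UMIs, taken as near-empty, carried Apoa1 at 2717, 5979, 2856 and 1835 UPM, Apoa4 at 1126, 3166, 1188 and 744 and Fabp1 at 3291, 4668, 1793 and 1261. In ApcMin replicate 1 they also carried Xist at 222 UPM, against 0 in its adenoma cells and 0 in its enterocytes. These barcodes were thus not made up only of RNA from those cells, and the source of the rest was not tested. Adenoma cells held Apoa1 at 0.0554 to 0.0679 of the near-empty level but Cd36 at 0.00047 to 0.0074 of it. The near-empty level is therefore a comparison and not a measure of the free RNA in a cell. Enterocytes were above these near-empty barcodes for 9 of the 10 genes in every library, by 1.97-fold to 12.5-fold, and below them for Cd36. The smallest ratio was that of Apoc3 in VApcMinL replicate 1 and the largest that of Fabp1 in VApcMinL replicate 2. T, cytotoxic and myeloid cells, pooled as cells that should make none of these apolipoproteins, held Apoa1 at 245, 491, 443 and 197, Apoa4 at 135, 280, 232 and 82.4, and Fabp1 at 218, 295, 208 and 103. Levels of the crypt and adenoma gates at or below these are within what cells of another type carried. Median depth was 2563 to 2891 UMIs in T and cytotoxic cells and 4140 to 7100 in myeloid cells. It was 14720 to 36245 in crypt cells and 17541 to 32437 in adenoma cells. Free RNA of a droplet would be a smaller share of a deeper cell. The pool therefore cannot bound what crypt or adenoma cells themselves make. In immature absorptive cells Apoa4 (111, 242, 157 and 85.6) and Apoc3 (35.1, 56.4, 29.7 and 19.1) lay near the pooled level, which for Apoc3 was 31.8, 68.6, 30.3 and 15.8. The immature levels of Fabp1, Fabp2, Mttp, Apob, Dgat1 and Dgat2 lay above it in every library, and that of Apoa1 in 3 of 4.

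The apolipoprotein genes of the chromosome 9 cluster had the steepest course. Apoa1, the main protein of high-density lipoprotein, was at 172, 342, 159 and 196 UPM in crypt cells and 488, 467, 669 and 278 in immature absorptive cells. It reached 11485, 13685, 14018 and 13898 in enterocytes and 21784, 27213, 30016 and 33890 at the villus tip. The crypt and immature ranges met, and the later stages did not overlap with them or with each other. Apoa4, a chylomicron apolipoprotein induced by fat feeding, was at 111, 242, 157 and 85.6 in immature absorptive cells, which overlaps its crypt level of 78.3 to 236. It then stood at 3732, 6417, 3890 and 3464 in enterocytes and 24255, 30888, 22937 and 27801 at the tip, the largest rise of the 10 genes between these 2 gates. Apoc3, an inhibitor of lipoprotein lipase, was at 35.1, 56.4, 29.7 and 19.1 in immature absorptive cells, 1137, 1650, 1086 and 1123 in enterocytes and 1965, 3130, 2088 and 2553 at the tip. Within enterocytes Apoa1 exceeded Apoa4 in every library (11485 against 3732 in ApcMin replicate 1, for example), whereas at the tip Apoa4 was above Apoa1 in both version 2 libraries and below it in both version 3 libraries.

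Apob, the structural protein of the chylomicron, and Mttp, which loads lipid onto it, had a larger share of their enterocyte level in immature absorptive cells. Apob was at 138, 132, 263 and 210 UPM in immature absorptive cells, 1103, 1403, 2162 and 1674 in enterocytes and 3303, 2602, 5208 and 4854 at the tip. Mttp was at 24.1, 26.1, 29.1 and 13.6 in crypt cells and already 194, 155, 193 and 137 in immature absorptive cells. It stood at 1214, 1172, 1081 and 814 in enterocytes and at 1033, 1073, 971 and 873 at the tip. The 2 partners therefore parted at the last step, with no overlap between enterocyte and tip levels for Apob and full overlap for Mttp.

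Fabp1 and Fabp2, the liver and intestinal fatty acid binding proteins, carry fatty acids through the cytosol. Fabp1 was at 173, 246, 125 and 46.4 UPM in crypt cells and 2604, 2003, 1567 and 908 in immature absorptive cells. In enterocytes it was the most abundant of the 10 genes in each of the 4 libraries, at 20029, 17722, 21000 and 15696, and at the tip it stood at 4873, 3986, 4868 and 7656. Fabp2 was at 739, 729, 964 and 759 in immature absorptive cells, 6921, 10146, 16015 and 11415 in enterocytes and 4704, 6582, 9952 and 7740 at the tip. It was lower at the tip than in enterocytes of the same library in 4 of 4 libraries, though the ranges of the 2 gates overlapped.

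Cd36, a membrane protein that binds long-chain fatty acids, was the rarest of the 10 genes in epithelial cells. It was read at 57.7, 62.9, 56.5 and 42.9 UPM in enterocytes, at 3.1, 2.08, 1.96 and 2.28 in immature absorptive cells, and in crypt cells by 4, 0, 1 and 3 UMIs in all. The 0 UMIs of VApcMinL replicate 1 allow up to 3.56 UPM. At the tip it was at 5.27, 26.5, 19.3 and 15.6, from 1, 42, 59 and 17 UMIs, each below the enterocytes of its library. After each cell was thinned to 2000 UMIs, 13.2% (exact 95% binomial interval 9.37 to 17.9), 13.4% (10.6 to 16.6), 11.2% (9.19 to 13.6) and 10.5% (8.15 to 13.3) of enterocytes held a Cd36 UMI, against 38.9%, 44.8%, 58.8% and 45.1% without thinning. T and cytotoxic cells, taken as the background, gave 0%, 1.49%, 0% and 0% after thinning; the 3 libraries at 0 allow up to 9.68%, 13.0% and 6.52%. The median depth before thinning was 9600 to 27890 UMIs in enterocytes and 2563 to 2891 in T and cytotoxic cells. Endothelial cells, which take up fatty acids from blood, were higher than enterocytes, at 251, 119, 725 and 115 UPM from 77, 44, 5 and 6 cells. Near-empty barcodes were at 202, 187, 1142 and 1221, above enterocytes in every library.

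Dgat1 and Dgat2 code for unrelated enzymes that catalyse the last step of triglyceride synthesis. Dgat1 was at 33.7, 47.5, 59.0 and 42.4 UPM in crypt cells, 216, 186, 203 and 185 in immature absorptive cells, 560, 465, 613 and 621 in enterocytes and 342, 374, 417 and 460 at the tip. Dgat2 was at 16.9, 15.4, 15.8 and 31.8 in crypt cells, 56.1, 82.4, 32.4 and 33.5 in immature absorptive cells, 232, 277, 123 and 141 in enterocytes and 922, 663, 488 and 446 at the tip. Dgat1 was above Dgat2 in the enterocytes of every library and below it, or near it, at the tip (342 against 922 in ApcMin replicate 1 and 460 against 446 in VApcMinL replicate 2). From enterocytes to tip cells Dgat2 was higher and Dgat1 lower in 4 of 4 libraries, though the difference of Dgat1 did not pass the test given below.

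The level in immature absorptive cells was also read as a percent of that in enterocytes of the same library. This share leaves out the level in crypt cells, so it does not date when a gene came on. The rise from crypt to immature absorptive cells, given below, had another order. Dgat1 stood at 35.8% (median of 4 libraries, range 29.8 to 39.9), Dgat2 at 25.3% (23.9 to 29.7), Mttp at 16.4% (13.3 to 17.9) and Apob at 12.3% (9.40 to 12.5). Fabp1 followed at 9.38% (5.79 to 13.0), Fabp2 at 6.92% (6.02 to 10.7) and Cd36 at 4.4% (3.31 to 5.38). Apoa1 was at 3.83% (2.0 to 4.77), Apoa4 at 3.37% (2.47 to 4.03) and Apoc3 at 2.91% (1.70 to 3.42). The enzymes of triglyceride synthesis and the partners of particle assembly thus had a larger share of their later level in immature cells than the cluster apolipoproteins, with no overlap between the 4 libraries of Dgat1, Dgat2, Mttp and Apob and those of Apoa1, Apoa4 and Apoc3. Neighbours among Dgat1, Dgat2, Mttp and Apob were also apart from each other, Dgat1 and Dgat2 only just. Apob overlapped with Fabp1, Fabp1 with Fabp2, and Cd36 with Apoa1.

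The change from crypt to immature absorptive cells asks which genes come on with the first absorptive markers. Of 9 genes tested, 8 were higher in immature absorptive cells and 1 did not pass the threshold, where 33.7% of all 9607 genes tested passed and 17.2% passed as higher. The median change of the 9 genes was 1.22 on the log2 scale, against -0.03 over all genes. Fabp1 rose most, by a log2 change of 3.79 ± 0.17 (SE, here and below; adjusted p = 2.33e-08 by edgeR's quasi-likelihood test and Benjamini-Hochberg adjustment over all genes). Mttp followed at 3.01 ± 0.15 (edgeR's quasi-likelihood test, adjusted p = 2.83e-08) and Dgat1 at 2.20 ± 0.14, then Fabp2 at 1.86 ± 0.12, Dgat2 at 1.22 ± 0.28, Apoa1 at 1.2 ± 0.22, Apob at 1.12 ± 0.21 and Apoc3 at 0.66 ± 0.16. Apoa4 was at 0.24 ± 0.18, and its change within a library ran from -0.59 to 0.80 (edgeR's quasi-likelihood test, adjusted p = 0.327). It did pass without VApcMinL replicate 2, at 0.50 (edgeR, adjusted p = 0.0235). The calls for Apob (0.96, edgeR adjusted p = 0.174) and Apoc3 (0.76, edgeR adjusted p = 0.247) were lost in the fit with no replicate block, that is, without the library as a term, and that of Apoc3 with stricter gates (0.47, edgeR adjusted p = 0.106). With Gkn3 left out of the crypt list the count was again 8, with Mttp at 2.54 and Apoa4 at -0.06. Cd36 had too few UMIs for a test.

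Between immature absorptive cells and enterocytes all 10 genes rose, where 69.2% of 10481 genes tested passed and 34.9% passed as higher. The median of the 10 was 3.91 on the log2 scale and that of all genes 0.00. Apoc3 changed by 5.52 ± 0.18, Apoa4 by 5.23 ± 0.16 and Apoa1 by 5.16 ± 0.22. Cd36 rose by 4.86 ± 0.16, Fabp2 by 4.05 ± 0.17, Fabp1 by 3.78 ± 0.21, Apob by 3.41 ± 0.11 and Mttp by 2.95 ± 0.10. The triglyceride synthesis enzymes rose least, Dgat2 by 2.23 ± 0.11 and Dgat1 by 1.81 ± 0.11. The highest adjusted p of the 10 was that of Dgat1 (1.18e-07 by edgeR's quasi-likelihood test), and the count stayed at 10 in every setting tried. The gates were drawn on enterocyte markers, so a rise of genes of the same cells accompanies the gate by design, and the order among the 10 is the measurement here.

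From enterocytes to the villus tip the 10 genes divided. Apoa4 rose by 2.82 ± 0.22 on the log2 scale, with 4.81-fold to 8.02-fold changes in the 4 libraries (adjusted p = 1.29e-07 by edgeR's quasi-likelihood test). Dgat2 rose by 1.92 ± 0.15, Apob by 1.51 ± 0.17, Apoa1 by 1.27 ± 0.21 and Apoc3 by 1.16 ± 0.17. Fabp1 fell by 1.65 ± 0.24 (edgeR's quasi-likelihood test, adjusted p = 4.28e-05) and was at 0.225 to 0.488 of its enterocyte level, and Cd36 fell by 1.23 ± 0.19 (edgeR's quasi-likelihood test, adjusted p = 8.20e-05). In all 5 genes were higher and 2 lower at the tip, where 56.6% of 8727 genes passed, 26.3% higher and 30.2% lower, and the medians were 0.63 for the 10 genes and -0.09 for all genes. Mttp, at 0.10 ± 0.16 (-0.10 when scaled by library totals only), did not pass (edgeR's quasi-likelihood test, adjusted p = 0.621). Fabp2 was at -0.41 ± 0.18 (edgeR's quasi-likelihood test, adjusted p = 0.0650), and Dgat1 at -0.28 ± 0.15 (edgeR's quasi-likelihood test, adjusted p = 0.133); Fabp2 passed in 5 of the other settings, for example at -0.44 by DESeq2 (adjusted p = 0.000661), with adjusted p between 0.000107 and 0.555 over all of them. When the mitochondrial limit was set at 10%, the fall of Cd36 was 0.73 and no longer passed (edgeR's quasi-likelihood test, adjusted p = 0.138).

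Other genes of lipid handling were read from a list of 31. The gates drawn on enterocyte markers bear on the counts of this list in the same way. From crypt to immature absorptive cells 24 of 28 tested rose and 3 fell, where 17.2% of all genes tested passed as higher and 16.5% as lower. Creb3l3, a transcription factor of lipid metabolism, rose by 4.19 ± 0.19 on the log2 scale, Rbp2, the cellular retinol binding protein, by 3.99 ± 0.19, Abcg5, of the sterol exporter, by 3.23 ± 0.36, and Cidec, a lipid droplet protein, and Pla2g12b, which takes part in lipoprotein lipidation, by 2.94 each (SE 0.51 and 0.25). The genes that fell, named after their values were seen, were Acsl3, an acyl-CoA synthetase, Scarb1, the high-density lipoprotein receptor, and Apoe. From immature absorptive cells to enterocytes 28 of 30 rose and 0 fell, beside 34.9% of all genes as higher and 34.3% as lower. The rise was led by Abca1, a cholesterol exporter, at 3.77 ± 0.35, Rbp2 at 3.33 ± 0.15, Slc27a4, a fatty acid transport protein, at 3.27 ± 0.11 and Abcg8, the partner of Abcg5, at 3.14 ± 0.14. Apoc2 had a change of 4.29 ± 0.35, which is uncertain. It rests on 0, 16, 1 and 0 UMIs in immature absorptive cells and 23, 237, 137 and 22 in enterocytes. Readthrough transcripts overlap the gene, and their part in the change was not tested.

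At the tip 15 of 30 genes of the list were higher and 7 lower, beside 26.3% and 30.2% of all genes, so the count of lower genes was not above the background. Acsl3 rose by 2.54 ± 0.16, Cidec by 2.52 ± 0.17 and Apobec1, the enzyme that edits Apob mRNA, by 2.01 ± 0.17. Slc27a2, a very long-chain acyl-CoA synthetase, fell by 2.74 ± 0.26 and Ppara, a fatty acid sensing nuclear receptor, by 1.75 ± 0.25. The tip cells thus held more RNA of a lipid droplet gene, of an Apob editing enzyme and of Apob itself than enterocytes, and less of Ppara, Fabp1 and Cd36.

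Adenoma cells were compared with cells of the crypt gate, which in the version 2 libraries were not shown to be crypt cells. Levels were low in both. Apoa1 was at 182, 331, 194 and 123 UPM in adenoma cells, Apoa4 at 74.0, 210, 107 and 71.4, Apoc3 at 22.7, 45.7, 19.9 and 11.9, and Fabp1 at 139, 187, 85.8 and 48.5. Mttp was at 12, 15.0, 17.2 and 10.2, Fabp2 at 85.4, 155, 134 and 61.1, Dgat1 at 26.4, 29.5, 31.8 and 27.5 and Cd36 at 0.573 to 1.38. Of the 9 genes tested, Fabp2 fell by 1.28 ± 0.14 on the log2 scale (edgeR's quasi-likelihood test, adjusted p = 0.000647), Mttp by 0.81 ± 0.19 (edgeR, adjusted p = 0.0276) and Dgat1 by 0.73 ± 0.15 (edgeR, adjusted p = 0.0143). These 3 compare with 9.69% of 11526 genes that passed, 5.17% as lower, and the medians were -0.31 for the 9 genes and 0.04 for all. The other 6 did not pass: Apob was at 0.34 ± 0.17, Dgat2 at 0.61 ± 0.25, Fabp1 at -0.39 ± 0.13, Apoa4 at -0.31 ± 0.17, Apoa1 at -0.18 ± 0.15 and Apoc3 at -0.05 ± 0.18, the last of either sign over the settings.

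The count of 3 depended on the libraries and on the crypt gate. It was 1 without VApcMinL replicate 1 or without ApcMin replicate 2, 2 without ApcMin replicate 1 and 5 without VApcMinL replicate 2. It was 1 with no replicate block, and 5 when Gkn3 was left out of the crypt list, a setting chosen after the data were seen. The added genes were then Dgat2, higher by 0.96 (edgeR, adjusted p = 0.0335), and Fabp1, at -0.51 (edgeR, adjusted p = 0.0245). Mttp lost its call in 5 of the settings, with stricter gates at -0.54 (edgeR, adjusted p = 0.266). Of the 31 genes of lipid handling, 26 were tested, 4 fell and 2 rose, beside 5.17% of all genes as lower and 4.52% as higher. Slc27a2 fell by 3.70 ± 0.41 (edgeR, adjusted p = 0.000647), and Hnf4a and Hnf4g, the HNF4 transcription factors, by 1.61 ± 0.30 and 1.17 ± 0.28. Tm6sf2, a gene of lipoprotein lipidation, fell by 0.99 ± 0.25. Mogat2, an enzyme of the monoacylglycerol pathway, rose by 1.29 ± 0.25, and the other gene that rose, named after its value was seen, was Acsl3.

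Beside pooled cells of other types, few of the adenoma levels stood out. The pooled cells were shallower than adenoma cells, as given above. A level at or below theirs therefore does not show that a gene is silent in adenoma cells. Apob was at 54.8, 90.9, 258 and 113 UPM in adenoma cells and at 18.6, 32.1, 72.8 and 26.9 in pooled T, cytotoxic and myeloid cells, and the exact 95% Poisson intervals, which cover counting error only, were apart in 4 of 4 libraries. With fibroblasts and endothelial cells added to the pool it was at 18.3, 29.1, 54.4 and 104, and the interval of VApcMinL replicate 2 (83.2 to 127) then held the adenoma interval (111 to 116). Near-empty barcodes carried Apob at 144, 358, 411 and 292, above adenoma cells in every library. Dgat2 was at 49.0, 38.2, 22.3 and 30.6 in adenoma cells and 21.2, 39.4, 12.1 and 14.3 in the pooled cells, with intervals apart in ApcMin replicate 1 and VApcMinL replicate 2 but not in the other 2 libraries. The adenoma level of Dgat2 was 0.471 to 0.999 of that of near-empty barcodes. Apoa1, Apoa4, Apoc3, Fabp1, Fabp2, Dgat1 and Cd36 were below the pooled level in every library, and the intervals of Mttp overlapped with it in every library. The pool was chosen as cells that should make none of the apolipoproteins, and whether they make Dgat1 or Cd36 was not tested. Against near-empty barcodes, the median ratio of Dgat1 was 0.832 in T and cytotoxic cells and 0.237 in adenoma cells. That of Cd36 was 0.0393 in myeloid cells and 0.00375 in adenoma cells.

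The effect of the genotype was tested within each gate with the kit version as a block. In none of the 5 gates was any of the 10 genes called. The shares of all genes called in the same fits were 0.0376% in crypt, 0.00949% in immature absorptive, 0% in enterocyte, 0.0299% in villus-tip and 0% in adenoma cells, so a count of 0 among 10 is near the background. At an unadjusted p under 0.05 there were 2 of the genes in crypt cells, 3 in immature absorptive cells and 0 in the other 3 gates, and DESeq2 called 0 of the 10 in each gate. Over all genes, edgeR's quasi-likelihood test had 209, 288, 181, 178 and 27 at an unadjusted p under 0.05, and DESeq2 called 4, 2, 1, 2 and 2. Over all settings the lowest adjusted p of the 10 genes was 0.0673 in crypt cells and 0.118 in immature absorptive cells (edgeR or DESeq2).

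In enterocytes, where the genes are most abundant, the library labelled VApcMinL was higher for Apoa1 with kit version 2 (13685 against 11485 UPM) and close to the library labelled ApcMin with version 3 (13898 against 14018). The fitted difference, VApcMinL minus ApcMin, was 0.07 ± 0.43 on the log2 scale for Apoa1, 0.26 ± 0.41 for Apoa4, 0.25 ± 0.30 for Apoc3, -0.06 ± 0.33 for Apob and -0.28 ± 0.28 for Mttp. It was -0.35 ± 0.46 for Fabp1, -0.02 ± 0.48 for Fabp2, -0.20 ± 0.21 for Cd36, -0.17 ± 0.24 for Dgat1 and 0.18 ± 0.19 for Dgat2. Standard errors of this size leave room for differences in either direction. In crypt cells Apoa4 had the largest fitted difference, 1.03 ± 0.29 (edgeR's quasi-likelihood test, unadjusted p = 0.00514, adjusted p = 1.00), at a level within that of pooled T, cytotoxic and myeloid cells. The crypt difference was 0.63 ± 0.24 for Apoa1, -0.17 ± 0.43 for Apoc3, -0.26 ± 0.37 for Apob and -0.55 ± 0.40 for Mttp. It was -0.45 ± 0.38 for Fabp1, -0.37 ± 0.31 for Fabp2, -0.07 ± 0.31 for Dgat1 and 0.55 ± 0.43 for Dgat2, and Cd36 had too few UMIs for a test. In adenoma cells the fitted differences ran from -0.41 ± 0.69 (Cd36) to 0.45 ± 0.57 (Apoa4), and the 2 kit versions went opposite ways for all 10 genes. With version 2, 9 of the 10 were higher in the library labelled VApcMinL, with log2 differences of up to 1.51, and with version 3, 9 of the 10 were lower, with differences down to -1.18. The difference between the near-empty barcodes had the sign of the adenoma difference in both kits for 8 of the 10 genes, all but Cd36 and Dgat2. In them the log2 difference of Apoa4 was 1.49 with version 2 and -0.68 with version 3, and that of Apoa1 was 1.14 and -0.64. The part of free RNA in the adenoma difference was not tested. The kits went the same way for 2 of 10 genes in crypt cells, 7 in immature absorptive cells, 4 in enterocytes and 6 at the tip. Of the 31 other genes of lipid handling, 0 were called in any gate, of 18 to 30 tested.

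None of the differences in the other gates passed either. In immature absorptive cells the log2 difference was -0.68 ± 0.27 for Apoa1, 0.11 ± 0.39 for Apoa4, 0.03 ± 0.29 for Apoc3, -0.21 ± 0.16 for Apob and -0.42 ± 0.15 for Mttp. There it was -0.59 ± 0.20 for Fabp1, -0.19 ± 0.18 for Fabp2, -0.17 ± 0.51 for Cd36, -0.19 ± 0.15 for Dgat1 and 0.30 ± 0.18 for Dgat2. The 3 genes with an unadjusted p under 0.05, Apoa1, Mttp and Fabp1, were at an adjusted p of 1.00 (edgeR's quasi-likelihood test). At the villus tip the difference was 0.37 ± 0.31 for Apoa1, 0.43 ± 0.31 for Apoa4, 0.60 ± 0.34 for Apoc3, -0.10 ± 0.32 for Apob and 0.07 ± 0.34 for Mttp. At the tip it was 0.30 ± 0.34 for Fabp1, 0.18 ± 0.35 for Fabp2, 0.36 ± 0.56 for Cd36, 0.25 ± 0.34 for Dgat1 and -0.18 ± 0.34 for Dgat2. In adenoma cells it was 0.09 ± 0.42 for Apoa1, 0.13 ± 0.47 for Apoc3, -0.24 ± 0.52 for Apob and -0.24 ± 0.33 for Mttp. For the lipid carriers and enzymes there it was -0.21 ± 0.35 for Fabp1, -0.15 ± 0.54 for Fabp2, -0.04 ± 0.19 for Dgat1 and 0.04 ± 0.32 for Dgat2.

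**Figure D2:**
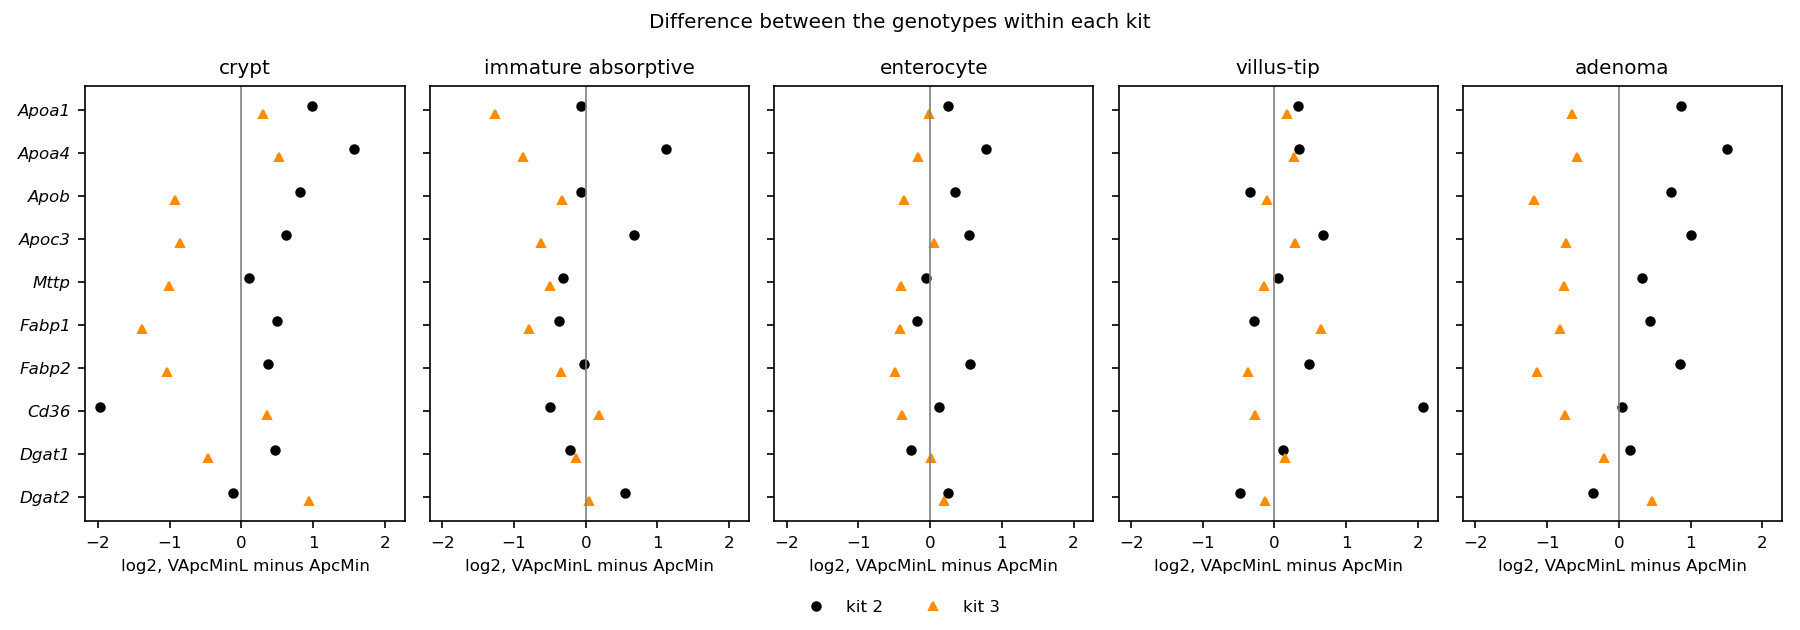
Log2 difference of the library labelled VApcMinL from the library labelled ApcMin within each kit version, for each gene in each gate. In adenoma cells 9 of 10 genes lie above 0 with version 2 and 1 of 10 with version 3.

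Whether a step along the lineage differed between the genotypes was tested with an interaction term. None of the 10 genes passed in any of the 4 comparisons, and of all genes 0 passed, with 215, 374, 412 and 192 at an unadjusted p under 0.05 for immature against crypt, enterocyte against immature, tip against enterocyte and adenoma against crypt cells. DESeq2 was not run on the interaction. The lowest unadjusted p was that of Apoa1 between crypt and immature absorptive cells, where the VApcMinL change minus the ApcMin change was -1.30 ± 0.26 on the log2 scale (edgeR's quasi-likelihood test, unadjusted p = 0.000229, adjusted p = 1.00).

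The mitochondrial share of a barcode moved with most of these genes inside the enterocyte gate. Per 1000000 UMIs of non-mitochondrial genes, so that the denominator does not hold the mitochondrial UMIs, mean Apoa4 was 2124 in barcodes with up to 10% mitochondrial UMIs, 6648 at 10 to 20% and 13657 at 20 to 40%, the last of which are left out of all results above. Apoa1 went from 8935 through 18595 to 32528, Apoc3 from 416 through 2024 to 3436, Apob from 1127 through 2173 to 4096, and Cd36 from 15.5 through 89.3 to 134. Fabp1 went from 15530 to 23623 and then stood at 9334, and Fabp2 from 6913 to 15421 and then 11244. Mttp was at 778, 1458 and 1619, Dgat1 at 475, 729 and 1151, and Dgat2 at 208, 223 and 238. The barcodes left out by the 20% limit numbered 76, 105, 608 and 128 in the gate, most of them in ApcMin replicate 2. With a limit of 10%, 6 of the 10 mean enterocyte levels differed by more than 1.5-fold from the 20% limit: 8210 UPM for Apoa1, 1954 for Apoa4, 1035 for Apob, 383 for Apoc3, 6350 for Fabp2 and 14.2 for Cd36. Mttp at 716, Fabp1 at 14284 and Dgat1 at 437 were also lower than with the 20% limit, by a smaller factor. At the tip, means with the 10% limit were 740 for Mttp, 328 for Dgat1 and 6.86 for Cd36. The part of the mitochondrial share in the levels was not tested.

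Position along the small intestine could be read in the version 3 libraries only. A list of ileal genes (Fabp6, Slc10a2, Slc51a and Cubn) marked 76 of 845 enterocytes in ApcMin replicate 2 and 56 of 590 in VApcMinL replicate 2, and 0 in both version 2 libraries. In these distal cells Fabp1 was at 1874 and 3374 UPM, against 21877 and 16709 in the other enterocytes. Apoa4 was at 1117 and 1017 against 4017 and 3666, Apoc3 at 267 and 418 against 1124 and 1181, and Mttp at 563 and 503 against 1104 and 839. Cd36 was at 9.26 and 15.3 against 58.7 and 45.2. Apoa1 did not follow, at 17721 and 18417 against 13848 and 13526, nor did Apob at 3032 and 1917 against 2122 and 1654. Fabp2 was at 13939 and 17902 against 16110 and 10881, Dgat1 at 499 and 624 against 619 and 621, and Dgat2 at 116 and 88.1 against 123 and 145. Lct, the lactase of the proximal gut, was at 47.2 and 102 against 563 and 307. With 2 libraries these are given as values without a test, and leaving the distal cells out changed no call at the tip.

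Cells within the enterocyte gate varied widely. In ApcMin replicate 1 the 10th, 50th and 90th percentiles over cells were 1969, 11292 and 24304 UPM for Apoa1. Apoc3 spread further, at 52.5, 661 and 4217 in the same library, and Mttp less, at 447, 1280.2 and 2103. With each cell thinned to 2000 UMIs, levels of Apoa1 and Apoa4 were correlated over cells (median Spearman rho of the 4 libraries 0.67, range 0.50 to 0.73), as were Apoa1 and Fabp2 (0.64, 0.43 to 0.72) and Apoa4 and Apoc3 (0.62, 0.54 to 0.67). Fabp1 was linked to Fabp2 (0.50, 0.34 to 0.55) and less to Apoa1 (0.21, 0.01 to 0.30). Dgat1 and Dgat2 were uncorrelated (-0.04, -0.05 to 0.03), though both are sparse at this depth. These are descriptions, since cells of 1 library share its depth and dissociation. Over the 20 sums of library and gate, the gene most like Apoa1 was Apoc3 (Pearson r of log2 levels 0.991), that most like Apob was Npc1l1, the sterol transporter (0.969), and that most like Mttp was Erich4 (0.994), among 7195 genes compared. Apoa4 was most like Ceacam20 (0.986), Apoc3 most like Apoa1, Fabp1 most like Tmem120a (0.982), Fabp2 most like Scp2, a sterol carrier protein (0.987), Dgat1 most like Tm6sf2 (0.992), and Dgat2 most like Fam214b (0.99). Cd36 was most like Ace (0.982), which is itself among the enterocyte markers used for gating.

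Outside the absorptive lineage, Fabp1 was also read in tuft cells, the chemosensory cells of the epithelium, which were gated by markers of their own. It was at 2913, 6329, 4760 and 841 UPM from 10, 16, 23 and 35 cells, and 8, 16, 21 and 24 of these cells held at least 1 UMI. The cell with the most Fabp1 gave 35.5%, 29.9%, 12.9% and 36.8% of these UMIs, and the median per cell was 11, 57, 58 and 1. Fabp1 was 1.27, 4.57, 8.42 and 9.28 of Apoa1 in tuft cells, beside 1.21, 0.781, 0.628 and 0.687 in near-empty barcodes. The part of free RNA and of single cells in the tuft level was not tested. In Paneth cells the cell with the most Fabp1 gave 96.0%, 30.3%, 29.2% and 53.1% of the UMIs of 6, 6, 8 and 21 cells, and no level is drawn from so few cells.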

How the data were processed

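The authors deposited, per library, a table of raw UMI counts for every droplet barcode and gene, with no normalization. The submitters' processing notes name Cell Ranger 2.1.1, Seurat 3.1.1 and the mm10 (GRCm38) build, and the headers of the kit version 3 tables name Cell Ranger 3.1.0. Per the labels each library is 1 pool of 3 to 10 tumors. Cells were kept at 2000 UMIs or more and 20% mitochondrial UMIs or less. They were gated by summed marker UMIs per 10000 (crypt at least 5, immature absorptive, enterocyte and villus-tip at least 20, adenoma at least 2, with upper limits on the other lists). Enterocyte markers were limited to 10 in the crypt gate and 5 in the adenoma gate, and had to reach 5 in the immature absorptive gate. Near-empty barcodes hold 10 to 100 UMIs. No doublet caller was run, and the top 5% of barcodes by UMIs were left out as an alternative.

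UMI counts were summed per library and gate and tested with edgeR 4.0.16 (quasi-likelihood, TMM scaling, min.count 10, Benjamini-Hochberg over all genes tested, 0.05) in R 4.3.3. Stage comparisons had the library as a block, and genotype comparisons the kit version. The kit version pairs the replicate numbers, and same-numbered libraries deviated together (Pearson r 0.22 to 0.71 over genes in the 5 gates). DESeq2 1.42.0 and other settings were alternatives. On simulated data 179 of 200 genes changed by 1.5 on the log2 scale were recovered for the genotype in enterocytes, with 1 false call among 10608 genes, and 181 with 10 false calls among 8727 for the tip against enterocytes. The simulated counts had the same fixed spread for every gene and no library or kit effect beyond depth. These recoveries therefore do not show what share of real changes of that size would be found. Intervals cover counting error only. UPM values (UMIs per 1000000) rest on 44660305 to 128247396 UMIs per library. The 10 genes, the marker lists and the list of 31 were chosen with earlier results of these data known. All 10 genes are named in each stage and genotype comparison; for the interaction only the gene with the lowest p is. Of the list of 31, the called genes with the 5 largest changes are named, and so are the genes most alike over the 20 sums. Sequences and positions are from RefSeq on GRCm38.p6.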

Additional observations from a re-analysis of the deposited data

Results flagged for a closer look

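Apoa1 between adenoma and crypt cells went opposite ways in the genotypes: every library labelled VApcMinL had a lower level in adenoma cells than in crypt cells, and every library labelled ApcMin a higher one, with a difference of means of -0.54 on the log2 scale (VApcMinL minus ApcMin). The interaction term gave -0.54 ± 0.28 (edgeR's quasi-likelihood test, unadjusted p = 0.0809, adjusted p = 1.00 over all genes). The Apoa1 levels of both gates were near or below those of T, cytotoxic and myeloid cells.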

How the results depend on the processing

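The count of genes that rose from immature absorptive cells to enterocytes was 10 in every setting, the count called at the tip was 7 and ran from 6 to 9 over the settings, and 0 genes were called for the genotype in any. From crypt to immature absorptive cells the count was 6 to 9. For adenoma against crypt cells it was 3, but 5 without Gkn3 in the crypt gate (chosen after the data were seen), 1 with no replicate block and 1 to 5 when libraries were left out in turn; the cause was not tested. With no replicate block Fabp2 in adenoma against crypt cells also lost its call (-1.23, edgeR adjusted p = 0.0668), and besides it, Apob, Apoc3 and Mttp no called gene did. Genes called for adenoma against crypt cells numbered 1117, but 413 to 2393 over the settings, and for immature against crypt cells 3234, but 1876 with no replicate block. Genotype calls over all genes ranged from 0 to 79 in any gate, against 0 to 3 as reported. Scaling by library totals only moved the median of all genes from -0.09 to -0.35 at the tip, where Fabp2 (-0.61) and Dgat1 (-0.49) then passed, from 0.00 to -0.30 for enterocytes against immature cells, from -0.03 to -0.13 for immature against crypt cells and from 0.04 to 0.12 for adenoma against crypt cells.

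Values that changed sign were called in neither fit. For stages they were Apoa4 from crypt to immature cells (-0.064 without Gkn3), Mttp at the tip (-0.057 with genes of at least 1 UMI, -0.10 by library totals, -0.22 with stricter gates, and -0.012 to 0.25 without 1 library), Apoc3 in adenoma against crypt cells (0.017, 0.035 and 0.081 with genes of at least 1 UMI, library totals and no replicate block, and -0.18 to 0.054 without 1 library) and Apoa1 there (-0.31 to 0.0094 without 1 library). For the genotype in enterocytes, Fabp2 was 0.035 at 4000 UMIs, 0.032 by library totals, 0.23 at a 10% mitochondrial limit, 0.20 with stricter gates and 0.00069 without the top 5% of barcodes. At the 10% limit Fabp1 was 0.029, Cd36 0.50 and Dgat1 0.020, and with stricter gates Apob was 0.12. Without 1 library, and then without the kit term, enterocyte values ranged from -0.017 to 0.20 for Apoa1, -0.21 to 0.75 for Apoa4, -0.49 to 0.41 for Apob, -0.061 to 0.57 for Apoc3, -0.57 to 0.026 for Mttp, -0.57 to 0.57 for Fabp2, -0.49 to 0.14 for Cd36, -0.34 to 0.0080 for Dgat1 and -0.42 to 0.79 for Dgat2, and adenoma values from -0.40 to 1.28 for Apoa4 and -1.13 to 0.25 for Cd36. Of the other 36 genotype differences, 49 of 449 values under other settings changed sign and 0 changed a call. Depth limits Cd36 most, with 0 to 4 UMIs per library in crypt cells.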
